A study of Homo sapiens with 4 samples.

Results

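The AP-1 transcription factor genes were examined for open chromatin in 2 prostate cancer cell lines. The 10 genes were FOS, FOSB, FOSL1, FOSL2, JUN, JUNB, JUND, ATF3, BATF and BATF3, taken by name from the 19689 protein-coding genes of the GENCODE annotation of hg38, and all 10 were found. For each gene, all peaks in the gene body and 50 kb either side were taken, which gave 145 of the 149676 peaks of C4-2B and 146 of the 118728 peaks of C4-2BER. The windows of ATF3 and BATF3 overlap, so 2 C4-2B peaks and 4 C4-2BER peaks lie in both and were counted once in totals.

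C4-2B is labelled as human prostate adenocarcinoma and C4-2BER as prostate neuroendocrine-like cells, and C4-2BER was obtained from C4-2B by continuous exposure to enzalutamide, an androgen receptor antagonist. The labels give the same RPMI medium with fetal bovine serum for both lines, and per the methods of the study C4-2BER was kept in enzalutamide throughout. An effect of the drug in the medium and an effect of the long-term selection therefore cannot be told apart. ATAC-seq, in which a transposase cuts accessible DNA, was carried out on 2 libraries per line, which were merged before macs2 called the peaks. There is thus 1 peak list per line, and the differences below were not tested between the lines and have no replicate check.

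AP-1 is a dimer of basic leucine zipper proteins. FOS family proteins cannot pair with each other and need a JUN partner, whereas JUN proteins also pair among themselves, and ATF3, BATF and BATF3 join the same dimers. The dimers bind the AP-1 motif, searched here as TGANTCA with any base at N. Those with ATF partners also bind the cyclic AMP response element (CRE), TGACGTCA. FOS, FOSB, JUN, JUNB and ATF3 are immediate early genes, switched on within minutes of growth factor, calcium or stress signals through CREs and through the CArG box, the site bound by serum response factor. In the prostate, AP-1 proteins are known to meet the androgen receptor on chromatin and to take part in stress and growth factor responses.

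The number of reads over each summit was recovered from the deposited fold enrichment and −log10 p. C4-2B had a depth of 30.2 M reads and C4-2BER of 25.2 M, and ratios between the lines are of reads scaled by the depth ratio of 1.20. Brackets give exact 95% intervals of a ratio, which cover counting error only and not the spread between libraries. On this scale the median ratio of C4-2BER to C4-2B was 1.10 over the strongest promoter peaks of all genes and 0.835 over all shared peaks outside promoters, so values are also set against these medians. The rank percentile is the place of a peak by −log10 p within its own list, with 100 as the strongest. The luminal prostate markers showed a promoter peak in each list for 10 of 10 genes, with KLK3, a gene driven by the androgen receptor, at 171 reads in C4-2B against 45 in C4-2BER. Of 9 neuroendocrine markers, 8 showed a promoter peak in each list and NEUROD1 in C4-2BER alone. Of 5 leukocyte markers, LCK showed a promoter peak in each list and 3 showed one in neither, and 5 of 5 fibroblast markers had one in both.

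The sequences below carry the sites that the results turn on. Each is the 201 bases around a summit on the plus strand of hg38, with matches to the AP-1 motif, the CRE and the CArG box in capitals. CArG matches were CC, then 6 bases of A or T, then GG, and all motifs were searched on both strands within 100 bp of the summit. The first 2 sit at FOS, and the others at distal peaks of ATF3, JUN, JUND and BATF.
FOS, 336 bp upstream of the TSS, chr14:75278392-75278592, CArG box: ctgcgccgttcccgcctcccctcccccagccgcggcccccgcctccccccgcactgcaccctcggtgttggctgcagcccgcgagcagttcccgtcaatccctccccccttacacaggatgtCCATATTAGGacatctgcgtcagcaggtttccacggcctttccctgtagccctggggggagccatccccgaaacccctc
FOS, 15.4 kb downstream, chr14:75294127-75294327, CArG box: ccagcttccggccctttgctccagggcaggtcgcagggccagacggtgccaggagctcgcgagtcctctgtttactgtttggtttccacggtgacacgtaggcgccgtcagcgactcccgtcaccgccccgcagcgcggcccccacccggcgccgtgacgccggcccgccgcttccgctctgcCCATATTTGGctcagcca
ATF3, 49.7 kb upstream, chr1:212558928-212559128, AP-1 motif and CRE: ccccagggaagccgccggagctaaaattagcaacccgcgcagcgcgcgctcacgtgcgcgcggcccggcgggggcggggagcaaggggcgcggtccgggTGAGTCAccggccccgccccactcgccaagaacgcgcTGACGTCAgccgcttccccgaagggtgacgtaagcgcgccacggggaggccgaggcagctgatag
JUN, 39.6 kb upstream, chr1:58823528-58823728, AP-1 motif at 2 places: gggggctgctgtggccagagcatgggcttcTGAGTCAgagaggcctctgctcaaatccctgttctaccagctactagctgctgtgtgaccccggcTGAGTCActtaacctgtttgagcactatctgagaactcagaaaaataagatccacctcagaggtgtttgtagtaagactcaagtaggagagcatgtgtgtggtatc
JUND, 19.7 kb upstream, chr19:18301179-18301379, AP-1 motif: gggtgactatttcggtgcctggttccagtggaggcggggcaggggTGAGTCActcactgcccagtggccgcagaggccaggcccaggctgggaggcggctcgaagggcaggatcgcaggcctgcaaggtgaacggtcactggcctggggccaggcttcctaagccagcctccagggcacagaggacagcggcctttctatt
BATF, 44 kb downstream, chr14:75566402-75566602, AP-1 motif: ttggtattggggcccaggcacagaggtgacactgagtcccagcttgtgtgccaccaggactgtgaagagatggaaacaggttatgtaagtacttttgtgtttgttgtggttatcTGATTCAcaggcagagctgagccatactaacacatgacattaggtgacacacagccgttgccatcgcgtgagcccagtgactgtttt

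To determine whether the genes were accessible in both lines, promoter peaks within 2000 bp of any transcription start site (TSS) of a gene were compared. All 10 genes showed a promoter peak in each list, against 77.7% of all protein-coding genes. Their strongest promoter peaks held a median of 157.5 reads in C4-2B against 147 in C4-2BER, against medians of 122 and 111 over the 15305 genes with a promoter peak in both lists. The level ran from 233 and 207 reads at JUN to 63 and 44 at BATF, in C4-2B and C4-2BER respectively. JUN, ATF3, FOS, JUND and FOSL2 were above 150 reads in both lines, and BATF and BATF3 were at or below 101 in both.

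**Figure D1:**
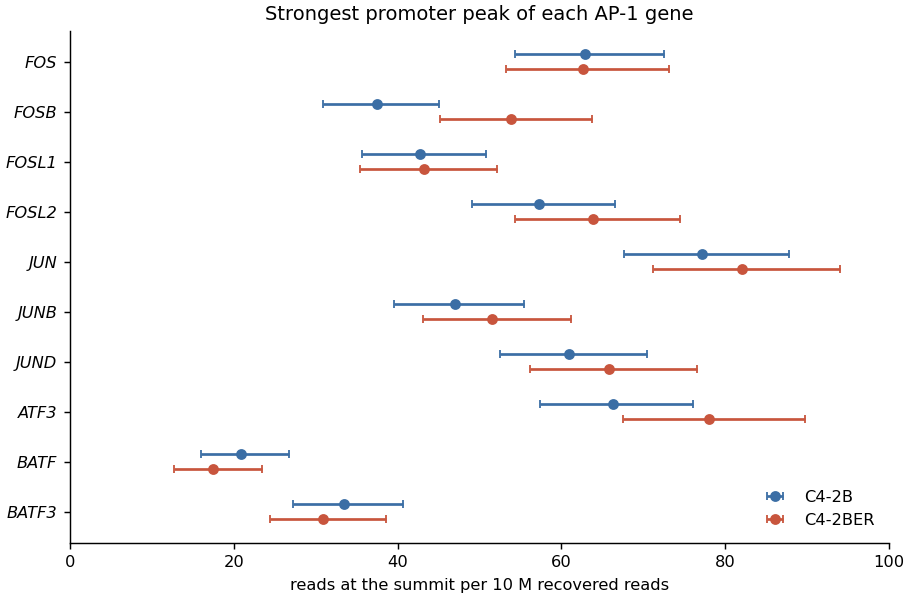
Reads at the summit of the strongest promoter peak of each AP-1 gene, per 10 M recovered reads, in C4-2B (blue) and C4-2BER (red). Points are the merged lists and bars are exact 95% Poisson intervals for counting error. FOSB, at 37.4 in C4-2B against 53.9 in C4-2BER, is the only one of the 10 genes whose bars do not overlap.

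Between the lines the promoter reads were close at most of the genes. The median log2 ratio over the 10 genes was 0.10, with 7 of 10 above 0, against 0.14 over all genes, of which 74.9% were above 0. FOS had a ratio of 0.995 (0.80 to 1.24), FOSL1 of 1.01 (0.78 to 1.32) and JUN of 1.06 (0.88 to 1.29). FOSL2, JUND and ATF3 had ratios of 1.11 (0.89 to 1.39), 1.08 (0.87 to 1.34) and 1.18 (0.96 to 1.44). BATF3 and BATF were on the lower side, at 0.924 (0.68 to 1.25) and 0.836 (0.56 to 1.25), with intervals that include 1. FOSB stood apart with 113 reads in C4-2B against 136 in C4-2BER, a ratio of 1.44 (1.11 to 1.87), the only one of the 10 whose interval lay above 1. Its log2 ratio of 0.53 exceeded that of 91.2% of all genes, and the lower end of its interval was just above the median ratio of 1.10 over all genes. The local background at FOSB was higher too, at 11.3 times the genome floor in C4-2B against 19.1 in C4-2BER. Its fold enrichment over that background was lower in C4-2BER, at 4.4 in C4-2B against 3.7.

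Ranks by −log10 p, for which macs2 sets a summit against the reads around it, gave a different order. By this measure 6 of the 10 genes ranked higher in C4-2BER, against 60.6% of all genes, with a median difference of 1.67 percentile points against 0.59. JUND moved most, from 74.4 in C4-2B to 86.2 in C4-2BER, followed by FOSB, from 74.4 to 81.9, and ATF3, from 85.3 to 92.3. BATF3, BATF, FOSL1 and JUNB ranked lower in C4-2BER, with -3.87 points at BATF3 as the lowest. The value of JUNB sets 2 different sites against each other, and the peak over its TSS ranked higher in C4-2BER. With promoters of 1000 bp either side of a TSS, 7 of the 10 genes ranked higher in C4-2BER and the median difference was 5.18 points. By reads at the summit, a ranking added after the data were seen, the median difference was -0.30 and only FOSB and ATF3 ranked higher in C4-2BER, so the direction of the median depended on the measure. The local background at these promoters had a median of 13.3 times the genome floor in C4-2B against 17.9 times in C4-2BER, against 4.56 and 5.20 over all genes. JUN stood at 99.97 by reads and 88.6 by −log10 p in C4-2B, over a background of 26.1 times the floor, and BATF at 78.3 and 82.9 over a background of 1.82 times.

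**Figure D2:**
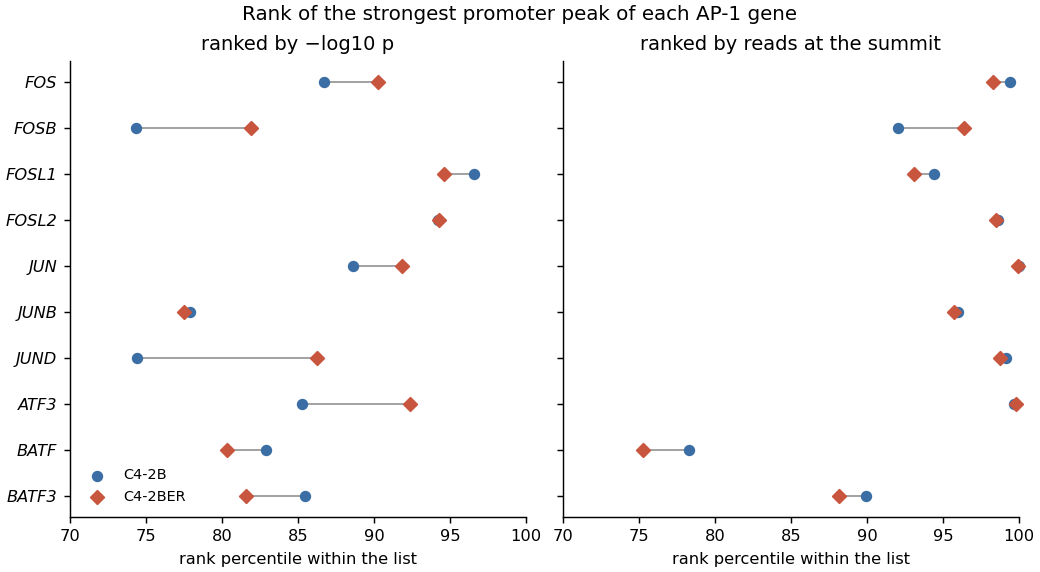
Rank percentile of the strongest promoter peak of each AP-1 gene within the list of C4-2B (blue circles) and of C4-2BER (red diamonds), by −log10 p on the left and by reads at the summit on the right; the axes start at 70. By reads, 6 genes lie above 95 in both lines, while by −log10 p no gene does in both.

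The next question was how much of the chromatin around these genes was particular to 1 line. Of the C4-2B peaks in the windows, 24 of 145 (16.6%, Wilson 95% interval 11.4 to 23.5) had no overlapping C4-2BER peak, against 37.7% of all C4-2B peaks and 35.8% of those in the windows of all protein-coding genes. Of the C4-2BER peaks, 27 of 146 (18.5%, 13.0 to 25.6) had no overlapping C4-2B peak, against 20.8% of all C4-2BER peaks. Outside promoters the shares were 19 of 87 (21.8%) for C4-2B, against 41.9%, and 17 of 83 (20.5%) for C4-2BER, against 22.4%. The windows were also dense in peaks, with a median of 14 per 100 kb for C4-2B and 12.5 for C4-2BER, against 7.83 and 6.40 over all genes, and the median C4-2B peak in them held 65 reads against 29 in the whole list. The part of density and of strength in the low C4-2B-only share was not tested.

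Counts per gene were small. FOSL2 had 4 C4-2B-only peaks of 12 and no C4-2BER-only peak of 8, and with equal numbers of top peaks in both lists it had 2 of each. JUND had 4 of 16 and 1 of 14. FOSB had 1 C4-2B-only peak of 16 and 6 C4-2BER-only peaks of 21, and JUNB had 0 of 19 and 3 of 22. ATF3 had line-only peaks on both sides, 5 of 15 and 7 of 17, as did FOSL1, with 3 of 18 and 5 of 18. FOS had 2 of 20 and 1 of 19, JUN 3 of 14 and 2 of 12, BATF 0 of 9 and 1 of 10, and BATF3 3 of 8 and 4 of 9. Many line-only peaks were weak, and a −log10 q of 10 or more was reached by 12 of the 24 C4-2B-only and 8 of the 27 C4-2BER-only peaks. Of the line-only peaks, 5 in each list lay within 500 bp of a peak of the other list.

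**Figure D3:**
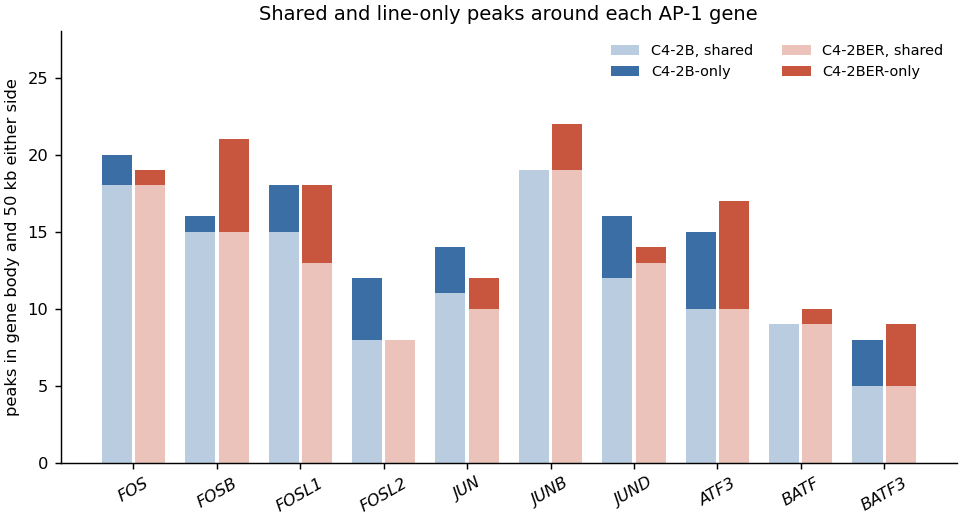
Number of peaks in the body of each AP-1 gene and 50 kb either side, in C4-2B (blue) and C4-2BER (red), with shared peaks in pale and line-only peaks in full colour. FOSB carries 1 C4-2B-only and 6 C4-2BER-only peaks, and FOSL2 4 and 0, which became 2 and 2 with equal numbers of top peaks.

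FOS, on chromosome 14 from 75278826 to 75282230 on the plus strand, encodes the founding FOS protein. It had 3 promoter peaks in each list, all shared. The strongest, 1.66 kb upstream of the TSS, held 190 reads in C4-2B against 158 in C4-2BER. The peak 336 bp upstream held 156 and 141 reads, and its rank was 69.7 in C4-2B against 82.8 in C4-2BER. It holds the CArG box printed above, at 75278514 to 75278523, the serum response element of this promoter. The peak over the TSS held 120 and 94 reads, so the 3 promoter sites had similar levels in both lines.

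Of the 15 shared distal peaks of FOS, the interval of the ratio lay below 1 at 2, above 1 at 1 and included 1 at the others. The peak 15.4 kb downstream, the strongest shared distal peak of the window in both lists, held 185 reads in C4-2B against 174 in C4-2BER, at ranks of 98.0 and 98.5, and holds the CArG box of the second sequence. The peak 19.6 kb upstream held 213 and 189 reads, at ranks of 95.7 and 98.3. The peak 24.2 kb upstream held 159 reads in C4-2B, while the C4-2BER list has 2 intervals of 74 and 76 reads over the same stretch, a ratio of 0.572 (0.43 to 0.76) to the stronger. The peak 14.6 kb upstream held 96 and 41 reads, a ratio of 0.511 (0.35 to 0.74). At 75295651 to 75296011 a peak of 35 reads in C4-2B overlapped a C4-2BER interval of 53, a ratio of 1.81 (1.16 to 2.86). The summit of that interval lies outside this peak, so the ratio sets different sites against each other. It lies in the next C4-2B peak, at 75296141 to 75296341 with 51 reads, where the ratio was 1.24 (0.83 to 1.86). The strongest C4-2B-only peak, 5.21 kb upstream at 75273370 to 75273770, held 90 reads. Scaled to the C4-2BER depth these would be 75.2 reads, where 50 would have been enough for a call over the nearest background of that list. The single C4-2BER-only peak, 35.8 kb upstream, held 11 reads.

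FOSB, on chromosome 19 from 45467995 to 45475179 on the plus strand, encodes a FOS protein whose truncated form accumulates in neurons after repeated stimulation. Its strongest promoter peak lay 1.32 kb inside the gene. A further peak directly upstream of the TSS was called in C4-2BER alone, with 83 reads and a −log10 q of 13.4. The 83 reads would be 99.3 at the C4-2B depth, where 41 would have been enough over the nearest C4-2B background. Its rank of 55.9 places it near the middle of the C4-2BER list.

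Further C4-2BER-only peaks lay beyond the 3′ end and in the neighbouring genes of FOSB. A pair 7.35 and 7.88 kb downstream of the TSS held 69 and 67 reads, at ranks of 3.72 and 6.39, over a background above 20 times the floor. The strongest by rank, 31.6 kb downstream in an intron of PPM1N, held 81 reads at a rank of 83.2. Peaks 26.9 kb upstream and 46.7 kb downstream held 48 and 25 reads. The C4-2B-only peak, 53.2 kb downstream in VASP, held 21 reads, which at the C4-2BER depth would have been too few for a call. Among the shared peaks the strongest distal one, 17.5 kb downstream in RTN2, held 91 reads in C4-2B against 116 in C4-2BER, a ratio of 1.53 (1.15 to 2.03). All 9 shared peaks at promoters of its neighbours ERCC1, RTN2, PPM1N and VASP had ratios above 1, against 68.2% of all shared promoter peaks, with a median log2 ratio of 0.40 against 0.13. They were set against 8 C4-2BER intervals, since 2 of them overlap the same one. The local background of the FOSB window was also higher, with a median of 4.52 times the floor in C4-2B against 7.73 in C4-2BER. Fold enrichment was lower in C4-2BER at most of these promoter peaks and higher at the others. At the distal peak in RTN2 it was 15.3 in C4-2B against 12.6 in C4-2BER. The part of the background in these ratios was not tested.

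FOSL1, on chromosome 11 from 65892049 to 65900573 on the minus strand, encodes FRA1, a FOS protein without the transactivation domain of FOS. Its 1 promoter peak held 129 reads in C4-2B against 109 in C4-2BER, at ranks of 96.6 and 94.6, over a background of 3.74 and 4.53 times the floor. The strongest shared distal peak of C4-2B, 56.1 kb downstream in CFL1 and SNX32, held 40 reads against 23 in C4-2BER. That of C4-2BER, 11.5 kb upstream, held 44 reads in C4-2B against 58 in C4-2BER, a ratio of 1.58 (1.05 to 2.39). Shared peaks with more reads in C4-2BER also lay 49.0 and 50.8 kb downstream, in SNX32 and CFL1, with 39 and 90 reads and with 31 and 60 reads. The local background there was higher too, at 5.45 times the floor in C4-2B against 16.7 in C4-2BER, and at 5.38 against 16.2. Their fold enrichment was lower in C4-2BER, at 3.0 in C4-2B against 2.8, and at 2.5 against 2.0. The strongest C4-2B-only peak, in an intron of FIBP 15.6 kb downstream, held 73 reads. The strongest C4-2BER-only peak, 32.3 kb upstream between genes, held 27 reads, and another at the promoter of EFEMP2, with 62 reads, holds the AP-1 motif.

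FOSL2, on chromosome 2 from 28392448 to 28417317 on the plus strand, encodes FRA2. Its promoter peak held 173 reads in C4-2B against 161 in C4-2BER, at ranks of 94.2 and 94.3, and holds an AP-1 motif at 28392862 to 28392868. Of 6 shared distal peaks, 5 had fewer scaled reads in C4-2BER, with a median log2 ratio of -0.64 against -0.26 over all shared distal peaks. The strongest in C4-2B, 36.5 kb upstream, held 82 and 33 reads, a ratio of 0.481 (0.31 to 0.73). The peak 31.2 kb downstream held 48 and 9 reads, a ratio of 0.224 (0.097 to 0.46), and the one 14.8 kb upstream 30 and 9 reads, a ratio of 0.359 (0.15 to 0.78). The 4 C4-2B-only peaks held 28, 26, 13 and 12 reads. The strongest shared distal peak of C4-2BER, 59.8 kb downstream, held 48 and 35 reads. The interval lay below 1 at 3 of the 6 shared distal sites, against 24.9% of all shared distal peaks, and at the same 3 below the median ratio of 0.835, against 15.7%. The promoter ratio of 1.11 was near the median of 1.10 over all genes.

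JUN, on chromosome 1 from 58776845 to 58784048 on the minus strand, encodes the main dimer partner of the FOS proteins and is known to be activated by its own product. Its promoter peak held 233 reads in C4-2B against 207 in C4-2BER. A second promoter peak 1.14 kb upstream held 117 and 114 reads, at ranks of 48.4 and 65.8. A further one, inside the gene 455 bp downstream of the TSS, was called in C4-2BER alone with 85 reads at a rank of 11.9. Scaled to the C4-2B depth these would be 102 reads, where 83 would have been enough over the nearest background of that list.

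Around JUN the shared distal peaks held fewer reads than its strongest promoter peak. The one with the most reads in both lists, 4.02 kb downstream of the TSS, held 135 and 97 reads at ranks of 53.1 and 41.8. The strongest by rank, 32.4 kb upstream, held 64 reads in C4-2B, and the overlapping C4-2BER interval, wider and with its summit 31.4 kb upstream, held 88, a ratio of 1.65 (1.18 to 2.31). The peak 39.6 kb upstream, which holds the AP-1 motif at 58823558 and at 58823623, held 41 and 22 reads. At 51.8 kb downstream the levels were 37 and 16 reads, a ratio of 0.517 (0.27 to 0.95). The 3 C4-2B-only peaks, downstream of the gene, held 40, 33 and 18 reads, of which the strongest lay 30.7 kb downstream at 58753115 to 58753490. A C4-2BER-only peak 16.8 kb downstream held 10 reads.

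JUNB, on chromosome 19 from 12791486 to 12793315 on the plus strand, encodes a JUN protein that often opposes JUN. The peak over its TSS held 135 reads in C4-2B against 130 in C4-2BER, at ranks of 69.9 and 77.5 and a ratio of 1.15 (0.90 to 1.48). In C4-2B a peak just past the gene, at 12793394 to 12794255, ranked higher than the TSS peak, with 142 reads, and it held 127 reads in C4-2BER. The strongest values by rank therefore came from different sites in the lists. The distal peak 4.80 kb upstream, in HOOK2, held 147 and 98 reads, with ranks of 84.5 and 73.7. Other shared sites were higher in C4-2BER, among them the peak 25.3 kb upstream in HOOK2, with 14 and 76 reads, a ratio of 6.50 (3.64 to 12.4), and the peak 49.3 kb downstream in MAST1, with 54 and 106 reads, a ratio of 2.35 (1.68 to 3.32). The strongest C4-2BER-only peak, 5.23 kb downstream, held 80 reads, and no peak of the window was C4-2B-only.

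JUND, on chromosome 19 from 18279694 to 18281622 on the minus strand, encodes the JUN protein that most tissues express without stimulation. Its 3 promoter peaks were shared. The strongest held 184 reads in C4-2B against 166 in C4-2BER, and in C4-2BER, where its summit was 221 bp upstream of the TSS, a CRE at 18281815 to 18281822 lay 28 bp from it. The peak over the 3′ part of the gene held 147 and 137 reads and that over the coding exon 125 and 83 reads, with ranks of 39.0 and 66.2 and of 28.5 and 17.0. The background around these peaks was above 20 times the floor in both lists.

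Upstream of JUND the peaks were lower in C4-2BER at 2 sites. The peak 11.8 kb upstream, the strongest distal one in C4-2B, held 157 and 95 reads, a ratio of 0.724 (0.56 to 0.94). The peak 19.7 kb upstream, whose AP-1 motif is printed above, held 75 and 25 reads, a ratio of 0.399 (0.24 to 0.63). The peak 47.0 kb upstream was level, with 115 and 122 reads, and was the strongest distal one in C4-2BER. The strongest C4-2B-only peak, in an intron of LSM4 38.4 kb upstream, held 73 reads, and the C4-2BER-only peak, 42.1 kb downstream, held 13.

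ATF3, on chromosome 1 from 212565334 to 212620777 on the plus strand, encodes a stress-induced protein that represses as a homodimer and activates with JUN partners. It has an upstream TSS at the start of the gene and the canonical one at 212608761. The canonical promoter held 200 reads in C4-2B against 197 in C4-2BER, with a neighbouring peak of 135 and 119 reads. The upstream promoter was far weaker and differed between the lists. A C4-2B-only peak 754 bp downstream of the upstream TSS, at 212565761 to 212566328, held 43 reads at a rank of 67.2, and a C4-2BER-only peak 1.54 kb downstream of that TSS held 19 reads at a rank of 33.6. A shared peak 1.92 kb from it, which holds an AP-1 motif, held 19 and 24 reads.

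The strongest shared distal peak of ATF3 lay 6.31 kb upstream of the upstream TSS, 49.7 kb from the canonical one, and held 115 reads in C4-2B against 118 in C4-2BER, at ranks of 94.6 and 96.1. It holds both an AP-1 motif and a CRE, at 212559027 and 212559064. At the far end of the window, 90038 bp upstream of the canonical TSS, a peak held 14 and 47 reads, a ratio of 4.02 (2.17 to 7.90). Of the C4-2BER-only peaks, the strongest by rank, 47.4 kb downstream, held 19 reads and an AP-1 motif, and 2 more, 13.4 kb downstream and 13.9 kb downstream at the promoter of GARIN4, held 50 and 46 reads at ranks of 7.47 and 6.60. A C4-2B-only peak 83.1 kb upstream held 43 reads.

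BATF, on chromosome 14 from 75522455 to 75546993 on the plus strand, and BATF3, on chromosome 1 from 212686417 to 212699840 on the minus strand, encode short zipper proteins that pair with JUN proteins and are best known from lymphocytes and dendritic cells. The BATF promoter peak, 859 bp upstream of the TSS, held 63 reads in C4-2B against 44 in C4-2BER. Its strongest distal peak, in an intron 13.6 kb downstream, exceeded the promoter, with 148 reads in C4-2B at a rank of 99.1 and 73 reads in C4-2BER at a rank of 91.4, a ratio of 0.590 (0.44 to 0.79). The peak 44 kb downstream held 119 and 28 reads, a ratio of 0.281 (0.18 to 0.43). Each holds the AP-1 motif TGATTCA. The peak 49.9 kb downstream held 31 and 13 reads, a ratio of 0.502 (0.24 to 0.99), whereas that 38.7 kb downstream was level, with 62 and 58 reads. The only line-only peak of BATF, in C4-2BER 3.55 kb upstream, held 19 reads.

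The BATF3 promoter peak held 101 reads in C4-2B against 78 in C4-2BER. A second shared promoter peak 1.36 kb upstream held 49 and 64 reads, a ratio of 1.56 (1.06 to 2.32), and between them a C4-2BER-only peak 759 bp upstream held 37 reads. The distal peak 21.8 kb upstream, which holds the AP-1 motif TGACTCA, held 90 and 45 reads, a ratio of 0.598 (0.41 to 0.86), and that 18.9 kb downstream 46 and 20 reads, a ratio of 0.520 (0.29 to 0.90). The strongest shared peak, 34.2 kb downstream of BATF3 and also in the window of ATF3, held 108 and 107 reads. The strongest C4-2B-only peak held 31 reads 19.5 kb downstream, and another of 43 reads lay 2.26 kb upstream. Over both BATF genes the interval lay below 1 at 5 of 10 shared distal sites, against 24.9% of all shared distal peaks. It lay below the median ratio of 0.835 at 2 of them, both at BATF, against 15.7%.

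**Figure D4:**
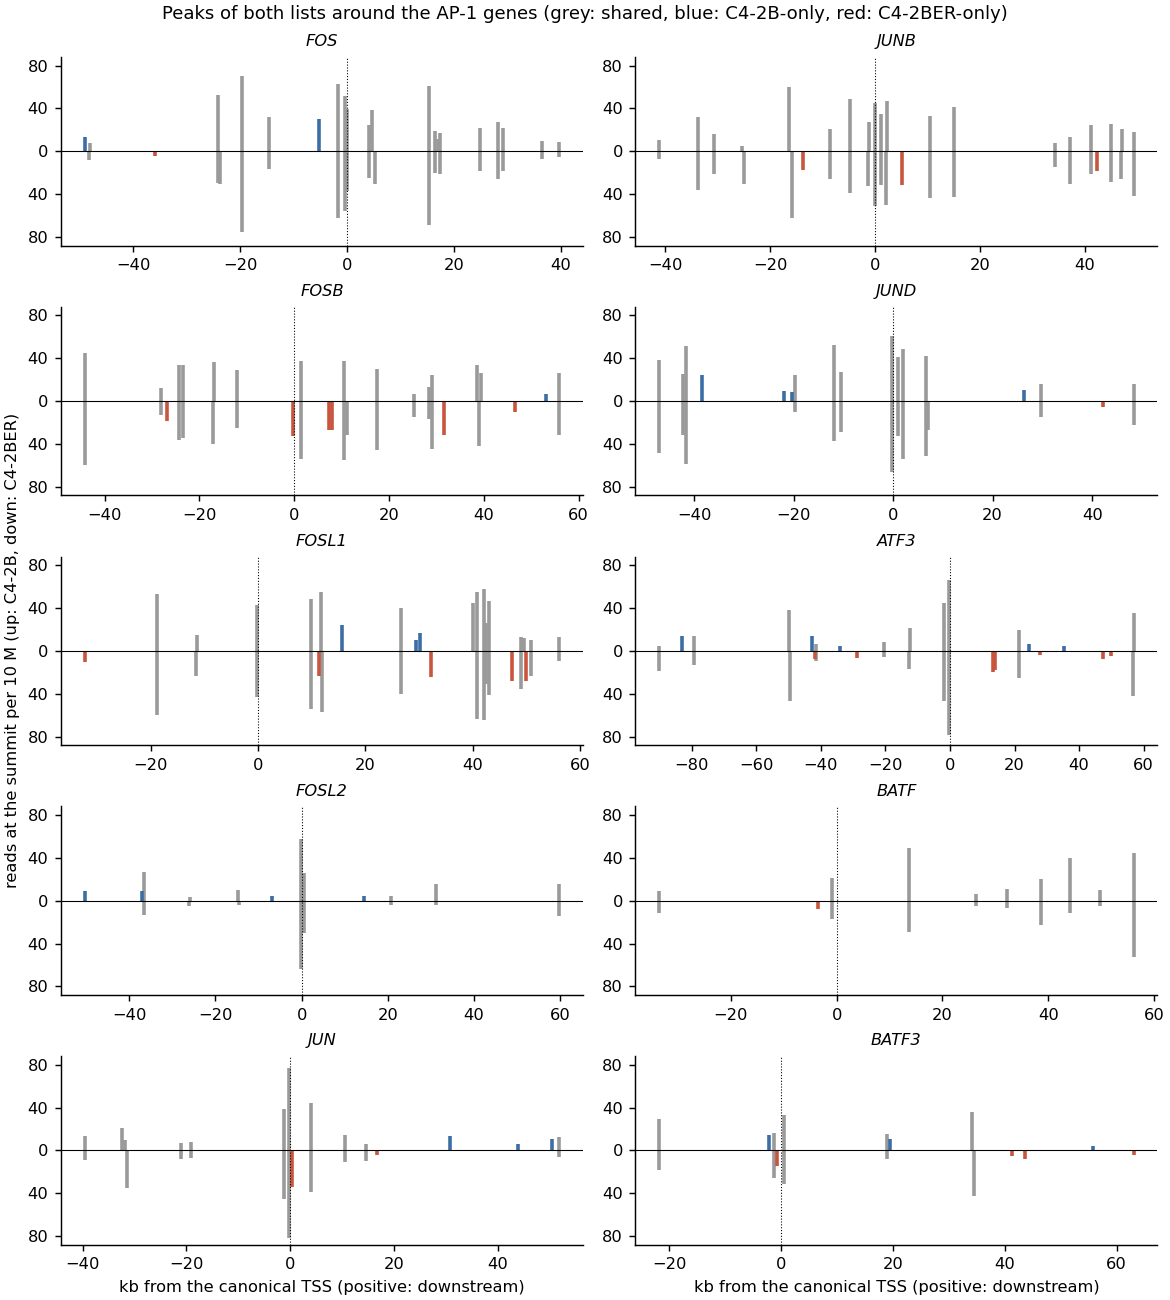
Peaks around each AP-1 gene by distance from its canonical TSS in kb, with the gene's direction to the right. Bars give reads at the summit per 10 M, upward for C4-2B and downward for C4-2BER; shared peaks are grey, C4-2B-only blue and C4-2BER-only red. FOSB shows 6 red bars, with 1 directly upstream of the TSS, and 1 blue bar.

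Over all windows, 68 shared distal peaks had a median ratio of 0.980, against 0.835 for all shared distal peaks. The interval lay below 1 at 13 of them, against 24.9% of all shared distal peaks, and above 1 at 12, against 4.66%. Set against the median of 0.835, the interval lay below it at 8, against 15.7%, and above it at 22, against 10.0%. Intervals of stronger peaks are narrower, and the part of the peak strength in these counts was not tested. The ratios are of reads and do not take the local background into account, and its part was not tested either. Those below 1 lay at BATF and FOSL2 (3 each), FOS, JUND and BATF3 (2 each) and JUN (1), and those above 1 at FOSL1 (4), JUNB (3), JUN (2) and FOS, FOSB and ATF3 (1 each). A pair of C4-2B peaks can share a C4-2BER interval, as at FOS, JUN and FOSL1, and is then counted as 2. The C4-2BER summit lay outside both C4-2B peaks at JUN, and outside the one with fewer reads at FOS and FOSL1. Those ratios, all among the intervals above 1, therefore set reads at different sites against each other.

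**Figure D5:**
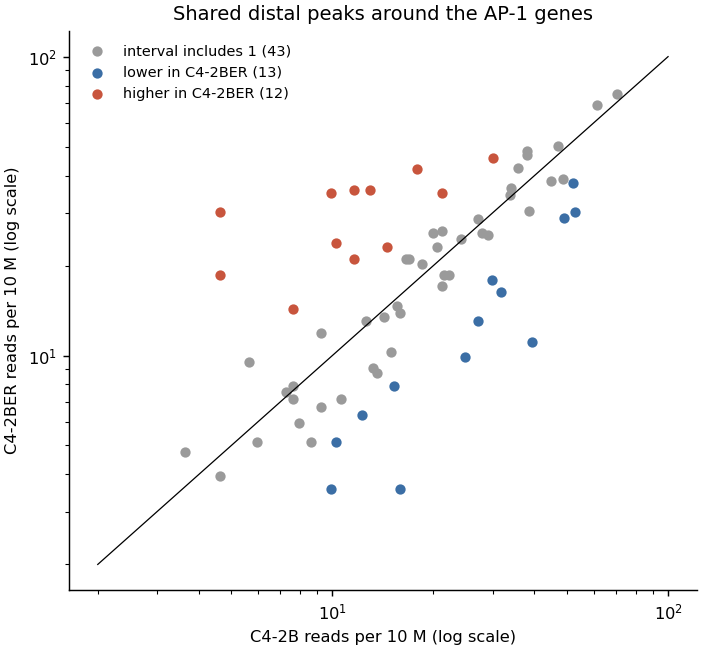
Reads at the summit per 10 M in C4-2B (horizontal) and C4-2BER (vertical) of the 68 shared distal peaks around the AP-1 genes, both on log scales; the line marks equal levels. Blue points (13) have a ratio interval below 1, red points (12) one above 1, and for the 43 grey points the interval includes 1.

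To determine whether open sites around the AP-1 genes carried AP-1 motifs, these were counted in all peaks of the windows, promoters of neighbouring genes included. The AP-1 motif was found in 14 of 145 C4-2B peaks of the windows (9.66%, 5.84 to 15.6) and in 18 of 146 C4-2BER peaks (12.3%, 7.94 to 18.7), near the 10.1% and 9.23% of all peaks. In the shared distal peaks it was found in 11 of 68 in C4-2B (16.2%, 9.28 to 26.7) and 10 of 66 in C4-2BER (15.2%, 8.44 to 25.7), against 10.8% and 10.6% of all shared distal peaks. Of the 19 C4-2B-only distal peaks none held it (interval 0 to 16.8%), against 11.3% of all such peaks. Of the 17 C4-2BER-only distal peaks 1 held it (5.88%, 1.05 to 27.0), against 9.53%. These intervals all include the shares over all peaks. The CRE was found in 2 and 4 peaks (1.38%, 0.38 to 4.89, and 2.74%, 1.07 to 6.83), against 0.442% and 0.578% of all peaks and 1.58% and 1.8% of all promoter peaks. Promoter peaks made up a larger part of the windows than of the lists. The CArG box was found in 7 C4-2B peaks (4.83%, 2.36 to 9.63) and 6 C4-2BER peaks (4.11%, 1.90 to 8.68), against 1.09% and 1.31% of all peaks and 0.804% and 0.887% of all promoter peaks. Besides FOS and FOSB it lay at windows of FOSL1, FOSL2, JUNB and ATF3. In the windows of FOSL1 and JUNB it lay at promoters of neighbouring genes.

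The forkhead motif, bound by FOXA1 in luminal prostate cells, was searched as NTAAANA, with the first N an A or G and the last a C or T. It was found in 9 of the 19 C4-2B-only distal peaks (47.4%, 27.3 to 68.3) and in 7 of the 68 shared distal peaks of C4-2B (10.3%, 5.08 to 19.8). Over all C4-2B peaks of these classes the shares were 32.2% and 24.5%. Among the 17 C4-2BER-only distal peaks 4 held it (23.5%, 9.56 to 47.3), against 18.6%. Among the 66 shared distal peaks of C4-2BER 8 held it (12.1%, 6.27 to 22.1), against 23.5% of all such peaks.

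Other genes of the pathway were compared at their promoters. The 12 partner zipper genes, such as ATF4, CREB1 and MAFG, showed a promoter peak in each list, and 12 of 12 ranked higher in C4-2BER, against 60.6% of all genes, with a median difference of 3.71 points against 0.59. By scaled reads 10 of the 12 were higher, against 74.9% of all genes, and MAFF and MAFK were not, with log2 ratios of -0.12 and -0.0067. JDP2, a repressor that pairs with JUN, ranked at 58.3 in C4-2B with 48 reads and at 81.4 in C4-2BER with 62 reads, and MAFG at 76.6 and 88.7 with 107 and 108 reads. Of the 12 upstream genes, which are mitogen-activated kinases, serum response factor and its ELK partners, 12 showed a promoter peak in each list and 9 ranked higher in C4-2BER, with a median difference of 1.12 points, while 10 were higher by scaled reads. SRF itself held 185 and 174 reads.

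Of 20 known target genes, 18 showed a promoter peak in each list and the collagenase MMP1 and the stromelysin MMP3 in neither. Of these 18, 9 ranked higher in C4-2BER, with a median difference of -0.26 points, and single genes differed widely. TIMP1, an inhibitor of matrix metalloproteinases, held 17 reads in C4-2B against 73 in C4-2BER, with ranks of 21.6 and 90.1, and the adhesion receptor CD44 held 19 and 28 reads, with ranks of 20.3 and 55.6. The urokinase gene PLAU held 28 and 17 reads, with ranks of 49.3 and 7.22, and the keratin gene KRT80 117 and 65 reads. The immediate early gene EGR1 held 219 and 223 reads, and IER2 161 and 156.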

How the data were processed

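ATAC-seq was carried out by the authors on 4 libraries, 2 of C4-2B and 2 of C4-2BER, grouped by their titles. According to the methods of the study, Bowtie2 placed the trimmed reads on hg38, and reads of low mapping quality and duplicates were dropped. Both replicates of a line were then merged before macs2 called peaks without a model. The methods print a shift of 100 bp, with reads extended to 200 bp. Summits were taken as deposited, and the effect of this shift on their positions was not tested. The submitters' processing notes also name FastQC, Picard and bedtools 2.17. The version of macs2 was not given in the sources used here.

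In the deposited files the fold enrichment is the ratio (reads over a summit plus 1) to (local background plus 1). The −log10 p values deposited by the authors are Poisson values from macs2 for the same summit, and the −log10 q is adjusted within its own list. A further deposited column gives the summit offset in bp. Rows that share an interval were taken as 1 peak, with the summit of highest −log10 p.

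A whole number of reads that solves fold and p was found for 100% of summits, with an error in −log10 p of at most 0.000259 in either list, and the step was checked on simulated summits. The lowest background, 2.24 and 1.87 reads per 200 bp in C4-2B and C4-2BER, gave the depths under the human preset of macs2, an effective genome of 2700000000 bp, and the depth ratio holds whatever genome was set. The local background is given as a multiple of this floor. The lowest −log10 p was 2.88 and 2.97, so weaker sites are not listed. The reads needed for a call in the other list are those that reach that lowest value over the background of the nearest summit within 5 kb, or over the floor where there is none.

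GENCODE release 44 gave genes and TSSs of protein-coding transcripts. Peaks of both lists with 1 bp or more in common were shared, and the rest line-only. A peak whose summit lay within 2000 bp of a TSS was a promoter peak of that gene, and the others were distal; the strongest promoter peak of a gene was the overlapping peak of highest −log10 p. A shared C4-2B peak was paired with the strongest C4-2BER peak that overlaps it. Shares carry Wilson 95% intervals and ratios exact conditional binomial intervals, for counting error only. With merged lists there was no test, SD or p-value. Named are all 10 genes and, for each, the strongest promoter, shared distal, C4-2B-only and C4-2BER-only peak of its window; other sites were named after their values were seen, as were the genes named from the pathway lists. The 10 genes, the pathway lists and the motifs were chosen with earlier results of these data known. Python 3.11.15 with scipy 1.17.1 and pysam 0.24.0 was used. The alternatives were stricter lists, equal numbers of peaks, equal depth, other overlap, window, promoter and motif rules, and a ranking by reads. The values of 2 marker genes and the sequence of 1 peak are not reported here.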

Additional observations from a re-analysis of the deposited data

How the results depend on the processing

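All 10 genes kept a promoter peak in both lists under each alternative run. The C4-2B-only share of 16.6% became 25% (28 of 112) among peaks with a −log10 q of at least 10 in both lists. There the C4-2BER-only share of 18.5% became 16.2% (16 of 99). With a reciprocal overlap of 50% the C4-2B-only share became 29.7% and the C4-2BER-only share 30.1%. The AP-1 motif share depended on the width searched. Within 250 bp of the summit the share was 20.0% for C4-2B and 20.6% for C4-2BER, and over the whole interval 19.3% and 19.2%. The shares over all peaks given above are for the narrower main search only. The wider shares therefore have no background of the same width and cannot be set against them. The median rank difference of 1.67 points became -0.30 when peaks were ranked by reads, an alternative chosen after seeing the data, 5.79 with equal numbers of top peaks, 5.18 with promoters of 1000 bp either side and 0.53 among peaks with a −log10 q of at least 10, where 5 of the 10 genes ranked higher in C4-2BER. In all, 30 alternative values of these results stayed within the interval of the main value or kept its direction. Of 160 counts of line-only peaks per gene under the alternatives, 103 were within 1.5 times the main count and 57 were not. Leaving out a replicate could not be done, because the lists hold no values per library. No paired analysis was possible because each list pools both libraries of its line. Recovered reads of up to 395 at the strongest summits and the lowest listed −log10 p set the range in which differences could be seen.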
